A study of Mus musculus with 16 samples.

Results

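The cytochrome P450 family was followed across lesions and control mucosa of the mouse proximal colon. Its members were all genes of the array with a symbol of the form Cyp, family number, subfamily letter and gene number, which gave 97 of the 30705 genes tested. They fell into 15 families and 37 subfamilies, and 6 carried a pseudogene name. Cyp2d13 carries no such name but is a transcribed pseudogene in RefSeq. The rule used the symbol alone.

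Cytochromes P450 are heme enzymes that use electrons from a reductase to insert oxygen into drugs, fatty acids, sterols, vitamins and steroid hormones. In the intestine they lie mainly in the absorptive epithelium, where they act on swallowed compounds before these reach the liver and make epoxides and hydroxy acids from arachidonic acid. Genes of one subfamily usually sit side by side in tandem arrays, and their copy numbers differ between mouse and human.

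RNA of the mucosal layer was measured on Affymetrix arrays, 1 array per sample, from male C57BL/6J mice that ate control feed or a feed holding 320 ppm sulindac. Sulindac is an inhibitor of prostaglandin synthesis. Feeding began at 6 weeks of age and lasted 10 weeks. All mice carried homozygous loxP-flanked Mcc, a gene named for its mutation in colorectal cancer. Knockout mice (KO) also carried a Villin-cre transgene, which deletes the gene in intestinal epithelium only, and their siblings without it are called wild type (WT). Controls numbered 6 WT and 3 KO arrays, and sulindac-fed mice gave 3 WT and 4 KO arrays. Sulindac samples were taken only from inflamed areas and are called lesions, and controls were matching normal mucosa, so the drug and the choice of inflamed tissue cannot be told apart.

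Mcc, the targeted gene, had log2 levels of 7.06 to 7.40 in the 9 WT arrays and 6.39 to 6.71 in the 7 KO arrays, with no overlap. Levels are log2 values from the robust multi-array average (RMA), which gives no detection call. The array medians over all rows lay between 4.90 and 5.05, and a group mean under 4.90 is read as near background. Numbers in the sample descriptions form a lower and a higher series, and WT controls alone hold both, while all KO controls lie in the higher and all lesions in the lower series. The KO response is therefore confounded with the series except through the WT controls. Markers fixed for colonocytes averaged 11.4 to 11.6 per array in the controls, as against 5.24 to 5.56 for hepatocyte markers.

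Promoters of the Cyp2c genes are shown because these genes, neighbours on chromosome 19, had the largest differences of the family. The sequences run 5′ to 3′ from 250 bases before to 50 bases after the annotated start and come from RefSeq on GRCm38.p6. Capitals mark CAAAGTCCA, a sequence bound by the receptor HNF4, searched on both strands. Cyp2c68 lies on the minus strand at chr19:39741052-39741351 and Cyp2c40 on the minus strand at chr19:39812765-39813064. Cyp2c65, Cyp2c66 and Cyp2c55 lie on the plus strand at chr19:39060756-39061055, chr19:39113648-39113947 and chr19:39006769-39007068.
Cyp2c68: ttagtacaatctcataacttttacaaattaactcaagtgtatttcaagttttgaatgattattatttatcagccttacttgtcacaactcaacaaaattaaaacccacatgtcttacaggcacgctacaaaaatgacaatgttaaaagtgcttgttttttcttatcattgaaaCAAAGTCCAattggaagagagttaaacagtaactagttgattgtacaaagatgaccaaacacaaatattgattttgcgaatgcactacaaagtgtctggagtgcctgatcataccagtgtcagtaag
Cyp2c40: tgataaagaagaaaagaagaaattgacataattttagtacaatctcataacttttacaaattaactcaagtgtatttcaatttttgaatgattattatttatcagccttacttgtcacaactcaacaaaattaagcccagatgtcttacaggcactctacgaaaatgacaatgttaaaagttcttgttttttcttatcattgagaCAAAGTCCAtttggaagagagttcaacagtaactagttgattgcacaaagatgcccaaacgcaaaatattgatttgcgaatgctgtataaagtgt
Cyp2c65: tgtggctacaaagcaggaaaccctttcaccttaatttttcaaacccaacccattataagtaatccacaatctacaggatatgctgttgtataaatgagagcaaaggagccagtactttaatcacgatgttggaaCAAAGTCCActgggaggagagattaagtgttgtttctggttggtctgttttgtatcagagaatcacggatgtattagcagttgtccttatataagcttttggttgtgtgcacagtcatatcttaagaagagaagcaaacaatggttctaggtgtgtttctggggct
Cyp2c66: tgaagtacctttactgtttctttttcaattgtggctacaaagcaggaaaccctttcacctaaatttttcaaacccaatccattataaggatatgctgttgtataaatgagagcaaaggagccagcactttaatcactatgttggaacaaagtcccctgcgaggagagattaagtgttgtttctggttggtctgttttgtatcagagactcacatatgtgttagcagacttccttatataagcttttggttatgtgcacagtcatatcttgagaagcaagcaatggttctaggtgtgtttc
Cyp2c55: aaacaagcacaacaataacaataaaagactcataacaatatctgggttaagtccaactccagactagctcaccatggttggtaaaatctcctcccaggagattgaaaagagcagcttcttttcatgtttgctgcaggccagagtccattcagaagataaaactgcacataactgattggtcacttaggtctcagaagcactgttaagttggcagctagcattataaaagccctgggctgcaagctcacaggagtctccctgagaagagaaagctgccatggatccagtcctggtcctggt

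CAAAGTCCA began 77 bases before the start in Cyp2c68 and 45 bases before it in Cyp2c40. It was also present in Cyp2c65, Cyp2c67 and Cyp2c69, whose copies began 116, 125 and 75 bases before the start. The windows of Cyp2c66 and Cyp2c55 held no copy of these letters. Of 32851 RefSeq promoter windows, 0.475% held the sequence. Members had 77 windows, of which 9 held it, and these belonged to 9 of the 69 members with a window (13.0%). The other members with it were Cyp2c70, Cyp3a11, Cyp3a16 and Cyp8b1. The letters TATAAA, searched the same way, were in 27 of the 77 member windows (39.1% of the members with a window) and in 13.6% of all windows. The core bound by the aryl hydrocarbon receptor, GCGTG, was in 16 of the 77 member windows (21.7% of the members with a window). It was in 32.4% of all windows. For all of these sequences the member percentages are per gene and the others per window, so they do not share a basis. Promoters of Cyp2c40, Cyp2c67, Cyp2c68 and Cyp2c69 were 90.6% to 98.9% identical in pairwise alignments, and those of Cyp2c65 and Cyp2c66 were 87.4% identical. A sequence found in such close copies is not an independent occurrence in each. Genes this alike may share array probes, which was not tested, so their differences may not be independent measurements.

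In WT mice, lesions against control mucosa, 34 of the 97 members were lower and 3 were higher (limma, adjusted p under 0.05 over all 30705 genes). Over all genes tested, 8.37% were called lower and 6.98% higher. The members' shares were 35.1% lower and 3.09% higher. The median log2 difference of the members was -0.15, and that of all genes -0.06. Of the members, 53 had a group mean at or above 4.90, and these held 28 of the 34 falls and all 3 rises. In 33 of the 34 genes that fell, every lesion lay below every control, and Cyp2r1 was the exception. Such separation follows in part from choosing genes by p-value, and its share over all genes was not computed. In 12 of the 34 a group mean compared lay near background. For 6 of these all groups did and the size is uncertain, and for the other 6 the size is a lower bound.

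In KO mice, 27 members were lower and 5 were higher in lesions. All-gene shares were 12.1% called lower and 8.98% called higher, and the members' shares were 27.8% and 5.15%. The median log2 difference was -0.03 for the members and 0.01 for all genes. The members near background in all groups held 2 of the 27 falls. Lesions and controls did not overlap in 22 of the 27 genes that fell or in any of the 5 that rose, again without a share over all genes. Cyp20a1, Cyp2c55, Cyp2c65, Cyp2d26 and Cyp3a13 fell with overlapping arrays. After centring each array on general epithelial markers, 42 members were lower and 2 higher. These markers averaged 10.97 to 11.11 per array in KO controls and 11.14 to 11.41 in KO lesions. The centring thus lowered all genes in KO lesions relative to KO controls, and the share of all genes called after it is not given.

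Many members were called in both responses, which rest on 1 shared estimate of the spread. There were 25 genes lower in both responses, which is 73.5% of those lower in WT and 92.6% of those lower in KO mice. Cyp2j6 and Cyp7b1 were higher in both. All 9 genes called lower in WT mice alone had a negative log2 difference in KO mice too. Each response had 15 genes that fell at least 2-fold. All 9 members whose mean over the 16 arrays was at least 8 passed in at least 1 response. For the counts of this paragraph, shares over all genes, or over all genes of that level, were not computed.

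**Figure D1:**
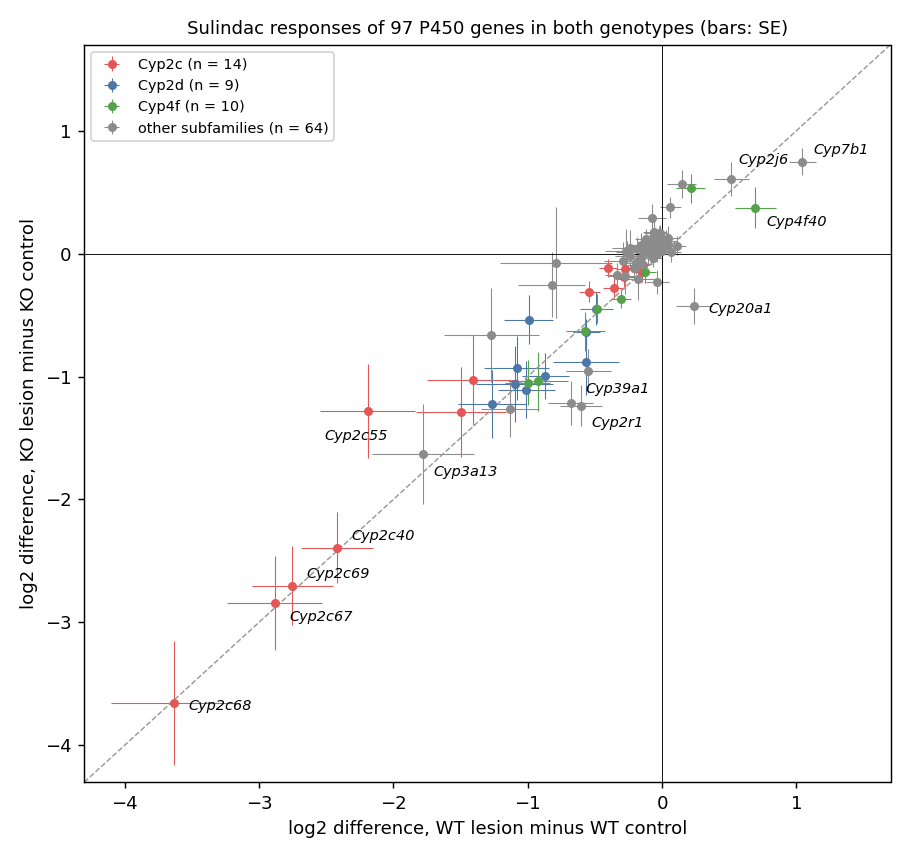
Log2 difference between lesions and controls of each of the 97 P450 genes in WT mice (x axis) and KO mice (y axis), with standard errors, coloured for the Cyp2c, Cyp2d and Cyp4f subfamilies. Cyp2c68, Cyp2c67, Cyp2c69 and Cyp2c40 lie near the diagonal at differences of -2.39 to -3.65, and Cyp20a1 lies on opposite sides of 0 in the 2 genotypes.

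The Cyp2c genes, whose enzymes oxidise drugs and make epoxy and hydroxy fatty acids, had the largest falls. Of 14 Cyp2c genes, 12 were lower in WT and 8 in KO lesions, and none was higher. Their log2 differences ran from -3.64 to -0.15 in WT and from -3.65 to -0.10 in KO mice. Of these genes, 7 lay near background in all groups, namely Cyp2c23, Cyp2c37, Cyp2c38, Cyp2c39, Cyp2c50, Cyp2c54 and Cyp2c70.

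Cyp2c68 had log2 levels of 7.96, 8.21 and 8.76 among WT controls (lowest, median, highest) and 4.25, 5.11 and 4.53 in WT lesions. It had 8.78, 8.45 and 8.01 among KO controls and 3.95, 6.78, 4.28 and 4.02 in KO lesions. In both genotypes every lesion lay below every control, and KO lesion 2 lay well above the other lesions. The log2 difference was -3.64 (SE 0.47, adjusted p = 7.2e-05) in WT and -3.65 (SE 0.50, adjusted p = 8.6e-05) in KO mice. Both lesion means were near background, so these sizes are lower bounds.

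Cyp2c67, Cyp2c69 and Cyp2c40, close copies of Cyp2c68, also had KO lesion 2 as the highest lesion. Cyp2c67 had 7.11, 7.36 and 7.73 among WT controls and 4.22, 4.93 and 4.28 in WT lesions. In KO mice it had 7.72, 7.56 and 7.26 in controls and 4.10, 6.18, 4.29 and 4.11 in lesions. Again no lesion reached a control.

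Cyp2c69 had 6.91, 7.16 and 7.58 among WT controls and 4.33, 4.70 and 4.27 in WT lesions. Its KO controls were at 7.53, 7.35 and 7.06 and its KO lesions at 4.01, 5.87, 4.34 and 4.22. The groups did not overlap in either genotype. Cyp2c40, which in mice hydroxylates arachidonic acid, had 6.98, 7.14 and 7.53 among WT controls and 4.63, 4.98 and 4.66 in WT lesions. In KO mice it had 7.58, 7.34 and 7.07 in controls and 4.69, 6.06, 4.40 and 4.61 in lesions. Its lesions too lay below all controls. The log2 differences of Cyp2c67, Cyp2c69 and Cyp2c40 were -2.88, -2.75 and -2.42 in WT and -2.84, -2.70 and -2.39 in KO mice, with SEs of 0.27 to 0.38. Their limma adjusted p-values lay between 1.7e-05 and 6.8e-05, and the sizes are lower bounds where the lesion mean lay near background, which leaves out Cyp2c40 in KO mice (mean 4.94).

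Cyp2c55 oxidises arachidonic and linoleic acid. Its array values among WT controls were 12.48, 12.76 and 12.89, and its WT lesions were at 11.20, 10.46 and 9.91. Its KO controls were at 12.40, 12.36 and 12.87 and its KO lesions at 10.60, 12.56, 10.57 and 11.31. The WT groups did not overlap, while KO lesion 2 lay within the range of the KO controls. Cyp2c55 was 4.57-fold lower in WT lesions (log2 -2.19, SE 0.35, adjusted p = 4.7e-04) and 2.43-fold lower in KO lesions (log2 -1.28, SE 0.38, adjusted p = 0.024). A fit of the KO arrays alone gave an adjusted p of 0.11, and array weights gave 0.055. The KO call was also lost without KO control 1 or 3 (adjusted p = 0.057 or 0.087) or without KO lesion 1 or 3 (adjusted p = 0.077 or 0.062).

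Cyp2c65 and Cyp2c66 make epoxides of fatty acids. Cyp2c65 had 10.33, 10.88 and 11.19 among WT controls and 9.48, 9.14 and 9.30 in WT lesions. In KO mice it had 10.76, 10.34 and 11.24 in controls and 8.92, 10.46, 8.59 and 10.01 in lesions. The KO groups overlapped through KO lesion 2. It was 2.82-fold lower in WT lesions (SE of the log2 difference 0.34, adjusted p = 0.0062) and 2.44-fold lower in KO lesions (SE 0.37, adjusted p = 0.019). The KO call ended without KO control 1 or 3 (adjusted p = 0.058 or 0.083), without KO lesion 1 (adjusted p = 0.061) and in a fit of the KO arrays alone (adjusted p = 0.11).

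Cyp2c66 had 9.09, 9.52 and 9.94 among WT controls, 8.26, 7.96 and 8.05 in WT lesions, 9.24, 8.90 and 9.98 among KO controls and 7.75, 9.31, 7.50 and 8.82 in KO lesions. The WT lesions lay below all WT controls, and the KO groups overlapped. It was 2.66-fold lower in WT lesions (adjusted p = 0.0094), and its KO difference of -1.03 (SE 0.37, adjusted p = 0.059) missed the threshold. Within the lower number series alone the WT differences of Cyp2c65 and Cyp2c66 were -1.34 and -1.30, with adjusted p of 0.081 and 0.083.

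KO lesion 2 touched all of these values. Without it the KO differences were -4.33 for Cyp2c68, -3.35 for Cyp2c67, -3.12 for Cyp2c69, -2.76 for Cyp2c40, -1.72 for Cyp2c55, -1.61 for Cyp2c65 and -1.35 for Cyp2c66, the last with an adjusted p of 0.0085. Cyp2c66 was also called without KO control 2 (adjusted p = 0.045) or KO lesion 4 (adjusted p = 0.048). The mean of 12 colonocyte markers was 11.3 on that array and 10.8, 10.3 and 11.0 on KO lesions 1, 3 and 4. The part of cell composition in the Cyp2c values was not tested.

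**Figure D2:**
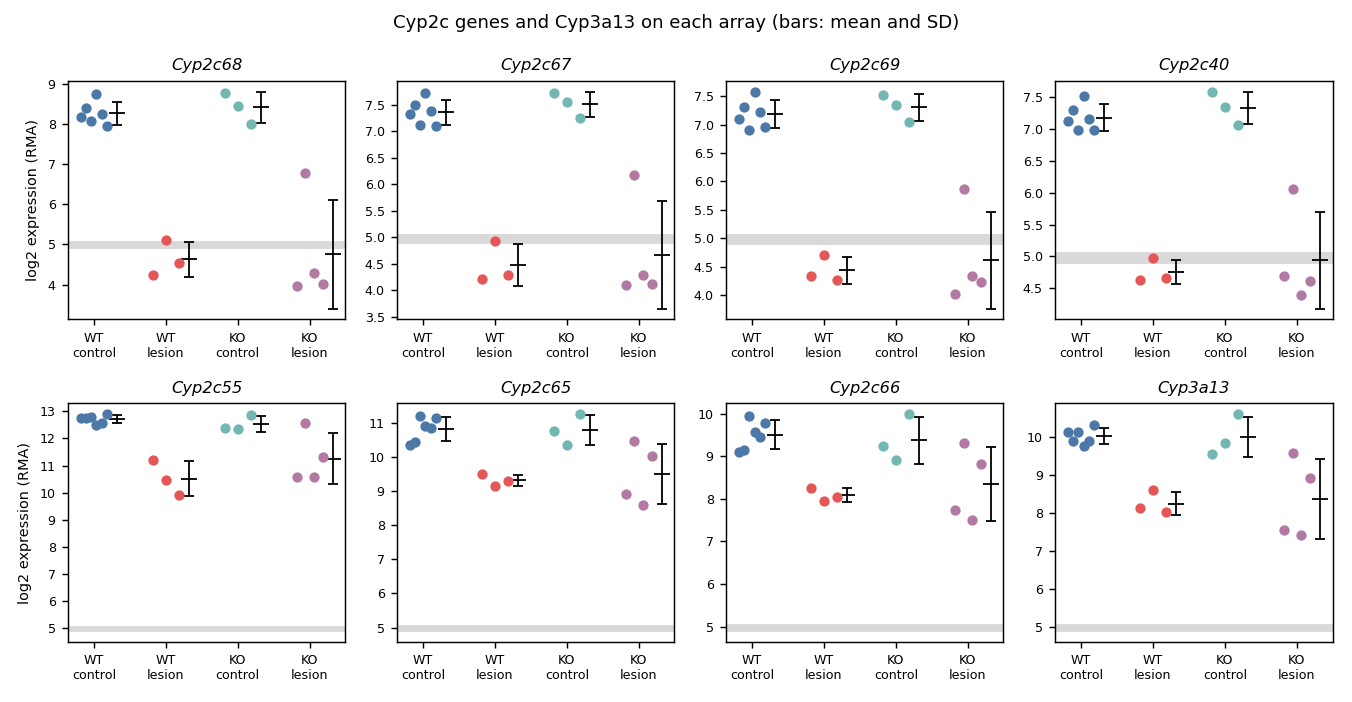
Log2 expression on each array (points) by group for 7 Cyp2c genes and Cyp3a13, with group mean and SD at the right of each group and a grey band for the range of array medians. KO lesion 2 is the highest KO lesion in all 8 panels, and the lesions of Cyp2c68, Cyp2c67, Cyp2c69 and Cyp2c40 other than that array lie near or under the band.

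The Cyp2c genes near background had smaller differences. In WT mice Cyp2c37 had a log2 difference of -0.54 (adjusted p = 2.4e-04), Cyp2c54 of -0.40, Cyp2c50 of -0.36, Cyp2c38 of -0.29 and Cyp2c39 of -0.27, all called lower. In KO mice Cyp2c37 and Cyp2c50 were called lower, at -0.31 and -0.28. The KO call of Cyp2c50 ended without KO control 1 or 3, without KO lesion 1 or 3 (adjusted p = 0.053 to 0.14) and with array weights, and that of Cyp2c37 without KO control 1 (adjusted p = 0.094). Neither passed in a fit of the KO arrays alone (adjusted p = 0.11 for both). The WT calls of Cyp2c38 and Cyp2c39 ended without WT lesion 3 (adjusted p = 0.11 and 0.097). Cyp2c70 and Cyp2c23 passed in neither response. As all 4 group means of these genes lay near background, their differences are uncertain in size.

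Cyp3a13, an intestinal drug-oxidising enzyme of the mouse, stood apart from its subfamily. Its WT controls were at 9.78, 10.01 and 10.33 and its WT lesions at 8.13, 8.60 and 8.02. Its KO controls were at 9.57, 9.85 and 10.60 and its KO lesions at 7.55, 9.59, 7.44 and 8.93. KO lesion 2 overlapped the KO controls. Cyp3a13 was 3.43-fold lower in WT lesions (log2 -1.78, SE 0.38, adjusted p = 0.0040) and 3.10-fold lower in KO lesions (log2 -1.63, SE 0.41, adjusted p = 0.0090). A fit of the KO arrays alone gave an adjusted p of 0.090. The other 6 Cyp3a genes, which neighbour each other on chromosome 5, lay near background in all groups and none passed. Among them was Cyp3a11, the main hepatic Cyp3a of the mouse, with a log2 difference of -0.29 in WT mice (adjusted p = 0.20). Cyp3a44 had the largest difference of these at -0.79 (adjusted p = 0.23), with 1 WT control at 5.56 and the others at 3.48 to 4.14.

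Most Cyp2d genes encode enzymes that oxidise many basic drugs, while RefSeq lists Cyp2d13 and Cyp2d37-ps as transcribed pseudogenes. The Cyp2d genes are neighbours on chromosome 15 and fell together. All 9 were above background, 8 were lower in WT lesions and 8 were lower in KO lesions, and none was higher. Log2 differences ran from -1.27 to -0.49 in WT and from -1.22 to -0.45 in KO mice. Cyp2d22 was lower in WT mice alone (log2 -0.99, adjusted p = 0.0014, against -0.54 and 0.067 in KO mice). Cyp2d26 was lower in KO mice alone (log2 -0.88, adjusted p = 0.026, against -0.56 and 0.14 in WT mice), and without KO control 3, KO lesion 1 or KO lesion 3 its adjusted p was 0.11, 0.076 or 0.055. A fit of the KO arrays alone and array weights also ended this KO call (adjusted p = 0.11 and 0.0685).

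Cyp2d10 had 8.25, 8.45 and 8.70 among WT controls, 7.29, 7.58 and 6.69 in WT lesions, 8.21, 8.62 and 9.10 among KO controls and 7.22, 8.11, 6.76 and 7.60 in KO lesions. All lesions lay below all controls of their genotype. It was 2.41-fold lower in WT lesions (SE of the log2 difference 0.25, adjusted p = 0.0027) and 2.33-fold lower in KO lesions (SE 0.27, adjusted p = 0.0044).

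Cyp2d34 had 8.81, 8.95 and 9.46 among WT controls, 8.17, 8.40 and 7.18 in WT lesions, 8.92, 9.12 and 9.69 among KO controls and 8.09, 8.68, 7.40 and 8.56 in KO lesions. Cyp2d9 had 7.67, 7.84 and 8.10 among WT controls, 6.82, 7.15 and 6.40 in WT lesions, 7.67, 8.0 and 8.58 among KO controls and 6.94, 7.61, 6.47 and 7.58 in KO lesions. Cyp2d12 had 6.37, 6.55 and 6.91 among WT controls, 5.62, 5.96 and 5.21 in WT lesions, 6.59, 6.90 and 7.38 among KO controls and 5.62, 6.32, 5.38 and 6.10 in KO lesions. In all of these genes lesions lay below controls without overlap, and the third lesion of each genotype was the lowest. The WT falls were 2.14-fold, 2.11-fold and 2.02-fold for Cyp2d34, Cyp2d9 and Cyp2d12, and the KO falls were 2.08-fold, 1.91-fold and 2.15-fold, with limma adjusted p from 0.0025 to 0.022. Without WT lesion 3 the WT differences of Cyp2d34 and Cyp2d9 were -0.73 and -0.88, with adjusted p of 0.13 and 0.051, which ended both calls. Their KO calls ended without KO control 3 (adjusted p = 0.10 for Cyp2d34 and 0.094 for Cyp2d9) or KO lesion 1 (adjusted p = 0.051 and 0.050), and that of Cyp2d34 also without KO lesion 3 (adjusted p = 0.053). Both KO calls also ended in a fit of the KO arrays alone (adjusted p = 0.066 and 0.098) and with array weights (adjusted p = 0.077 and 0.094). Cyp2d13 and Cyp2d40 were lower in both genotypes, by differences of -0.87 and -0.56 in WT and -0.99 and -0.64 in KO mice.

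**Figure D3:**
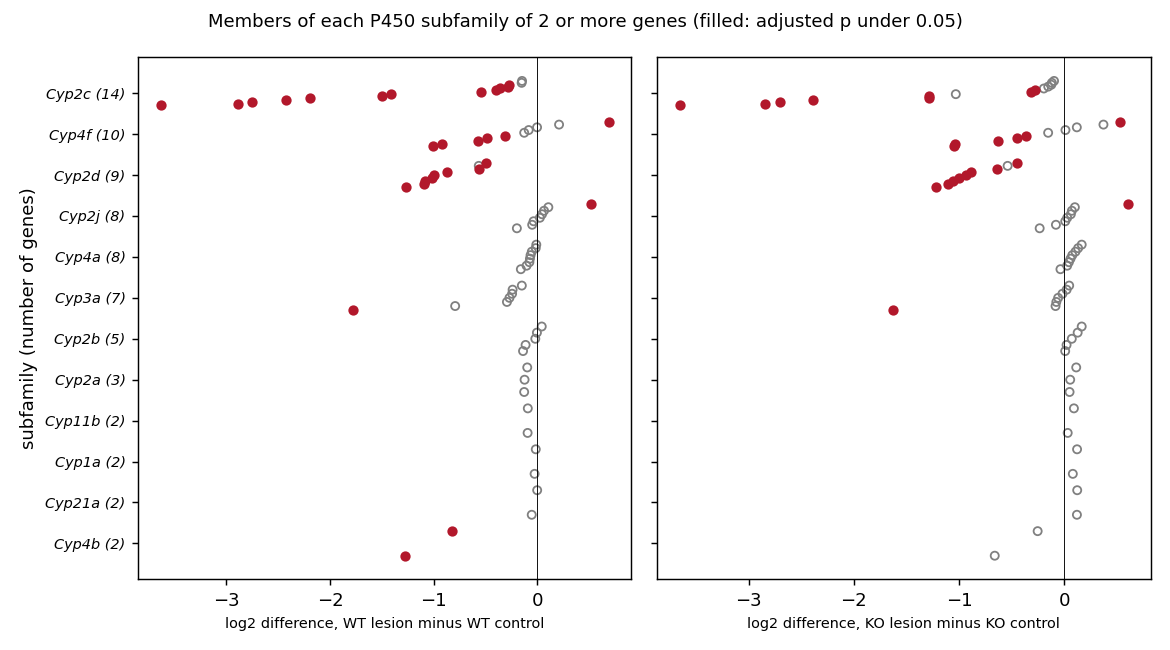
Log2 difference of each gene in the subfamilies with 2 or more members, WT response on the left and KO response on the right, with filled points where the adjusted p was under 0.05. Falls fill the Cyp2c and Cyp2d rows in both genotypes, Cyp4f genes lie on both sides of 0, and the Cyp2a, Cyp2b and Cyp4a rows hold no called gene.

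The Cyp4 enzymes hydroxylate the end of fatty acid chains. Of 10 Cyp4f genes, 5 fell in each response, namely Cyp4f13, Cyp4f14, Cyp4f16, Cyp4f17 and Cyp4f37, and 1 rose in each, Cyp4f40 in WT and Cyp4f18 in KO mice. Cyp4f13 had 7.37, 8.02 and 8.25 among WT controls, 6.76, 7.0 and 6.97 in WT lesions, 8.15, 8.06 and 7.96 among KO controls and 6.80, 7.41, 6.83 and 6.99 in KO lesions. All its lesions were below all controls of the same genotype, 2.0-fold in WT (adjusted p = 7.0e-04) and 2.07-fold in KO mice (adjusted p = 6.1e-04).

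Cyp4f14, which hydroxylates leukotriene B4, had 9.40, 9.59 and 9.73 among WT controls, 8.47, 9.17 and 8.32 in WT lesions, 9.54, 9.61 and 9.52 among KO controls and 8.21, 9.08, 7.87 and 8.92 in KO lesions. Controls held to a narrow range, lesions spread over about 1 log2 unit below it, and the groups did not overlap. The fall was 1.89-fold in WT (adjusted p = 0.010) and 2.05-fold in KO mice (adjusted p = 0.0055). Without WT lesion 1 or 3 its WT adjusted p was 0.052 or 0.078. Cyp4f16, Cyp4f37 and Cyp4f17 were lower too, with log2 differences of -0.57, -0.49 and -0.31 in WT and -0.63, -0.45 and -0.37 in KO mice. The WT call of Cyp4f16 ended without WT lesion 1 or 3 (adjusted p = 0.057 to 0.063). In a fit of the KO arrays alone the KO calls of Cyp4f16 and Cyp4f37 ended (adjusted p = 0.070 and 0.065).

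Cyp4b1, which oxidises fatty acids and small foreign compounds, had 5.90, 6.28 and 7.48 among WT controls, 5.35, 5.02 and 5.23 in WT lesions, 5.65, 5.71 and 7.13 among KO controls and 5.37, 6.26, 5.14 and 5.24 in KO lesions. WT control 3 and KO control 3 stood above the other controls. It was 2.41-fold lower in WT lesions (SE of the log2 difference 0.35, adjusted p = 0.023), and the KO difference of -0.66 (SE 0.38) had an adjusted p of 0.27. Without WT lesion 2 or 3 the WT adjusted p was 0.095 or 0.072. All 8 Cyp4a genes lay near background in all groups and none passed. Cyp4x1, also near background, was called lower in WT mice (log2 -0.21, adjusted p = 0.042). That call ended without WT control 1, 3, 4 or 6 or any of the 3 WT lesions (adjusted p = 0.062 to 0.18), in a fit of the WT arrays alone and with centring on the array median.

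Cyp2s1, an enzyme of epithelia outside the liver that responds to the aryl hydrocarbon receptor, fell in both genotypes. It had 9.20, 9.74 and 9.97 among WT controls, 8.40, 8.45 and 8.78 in WT lesions, 9.73, 10.02 and 9.40 among KO controls and 7.88, 8.82, 8.24 and 8.88 in KO lesions. No lesion overlapped the controls of its genotype. The fall was 2.19-fold in WT (log2 SE 0.21, adjusted p = 0.0018) and 2.40-fold in KO mice (SE 0.23, adjusted p = 9.3e-04). Cyp1a1, the classic target of that receptor, lay near background with group means of 4.10 to 4.18 and passed in neither response. Cyp2f2, known for activating naphthalene in mouse lung, was lower in both (log2 -0.55 in WT and -0.96 in KO mice), and Cyp2w1 was called lower in WT mice alone (log2 -0.34). The WT call of Cyp2f2 ended without WT control 3, 4 or 5 or any of the 3 WT lesions (adjusted p = 0.055 to 0.12) and with centring on the array median (adjusted p = 0.081). That of Cyp2w1 ended without WT lesion 2 or 3 (adjusted p = 0.069 to 0.12).

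Enzymes of sterols and vitamin D moved in different directions. Cyp39a1, which hydroxylates 24-hydroxycholesterol, had 7.98, 8.03 and 8.15 among WT controls, 7.27, 7.40 and 7.44 in WT lesions, 8.04, 7.89 and 8.01 among KO controls and 6.23, 6.93, 7.36 and 6.52 in KO lesions. The groups did not overlap, and KO lesion 3 lay at the level of the WT lesions. It was 1.60-fold lower in WT (SE of the log2 difference 0.17, adjusted p = 0.0099) and 2.33-fold lower in KO lesions (SE 0.18, adjusted p = 1.5e-04).

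Cyp2r1, a vitamin D 25-hydroxylase, had 4.94, 5.30 and 5.44 among WT controls, 4.41, 5.09 and 4.49 in WT lesions, 5.63, 5.43 and 5.37 among KO controls and 4.07, 4.58, 4.34 and 3.98 in KO lesions. WT groups overlapped and KO groups did not. The differences were -0.60 (SE 0.16, adjusted p = 0.015) and -1.24 (SE 0.17, adjusted p = 8.0e-05), both lower bounds in size. Without WT lesion 1 or 3 the WT adjusted p was 0.089 or 0.092. Cyp27b1 and Cyp24a1, which activate and break down vitamin D, passed in neither response, at -0.05 and -0.26 in WT and 0.01 and 0.01 in KO mice.

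Cyp7b1, the oxysterol 7-alpha-hydroxylase, had the largest rise. Its WT controls were at 3.74, 4.04 and 4.29 and its WT lesions at 5.03, 5.14 and 5.09. Its KO controls were at 3.94, 3.91 and 4.11 and its KO lesions at 4.86, 4.56, 4.81 and 4.70. Every lesion lay above every control. The log2 difference was 1.04 (SE 0.10, adjusted p = 5.1e-06) in WT and 0.75 (SE 0.11, adjusted p = 1.2e-04) in KO mice. Controls lay near background, so the WT size is a lower bound, and the KO lesions did too, so the KO size is uncertain. Cyp7a1 and Cyp8b1 of bile acid synthesis and Cyp27a1, the sterol 27-hydroxylase, passed in neither response.

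The other genes called higher were bright Cyp2j6 and Cyp4f40 and the dimmer Cyp4f18, Cyp11a1 and Cyp26b1. Cyp2j6, of a subfamily that makes epoxides of arachidonic acid, had 8.68, 8.74 and 8.95 among WT controls, 9.14, 9.49 and 9.29 in WT lesions, 8.79, 8.40 and 9.07 among KO controls and 9.33, 9.24, 9.22 and 9.66 in KO lesions. All its lesions lay above all controls, by log2 differences of 0.52 (SE 0.13, adjusted p = 0.013) in WT and 0.61 (SE 0.14, adjusted p = 0.0055) in KO mice. The WT call ended without WT lesion 2 (adjusted p = 0.090), and centring on general epithelial markers ended both calls (adjusted p = 0.064 and 0.067). In a fit of the KO arrays alone the KO call ended too (adjusted p = 0.054). The other 7 Cyp2j genes had differences of -0.20 to 0.11 in WT and -0.23 to 0.10 in KO mice, and none passed.

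Cyp4f40 had 8.39, 8.83 and 9.14 among WT controls, 9.27, 9.65 and 9.46 in WT lesions, 9.18, 9.04 and 8.65 among KO controls and 9.39, 9.14, 9.43 and 9.37 in KO lesions. It was 1.62-fold higher in WT lesions (SE of the log2 difference 0.15, adjusted p = 0.0050), and the KO groups overlapped, with a difference of 0.37 (adjusted p = 0.13). Cyp4f18, which in mouse neutrophils inactivates leukotriene B4, had 5.59, 5.74 and 5.77 among KO controls and 6.28, 6.40, 5.82 and 6.41 in KO lesions. KO lesion 3 was barely above the controls. Its KO difference was 0.53 (SE 0.12, adjusted p = 0.0043) and its WT difference 0.21 (adjusted p = 0.23). Centring on general epithelial markers gave an adjusted p of 0.058 in KO mice. A fit of the KO arrays alone gave an adjusted p of 0.05001, which just missed the threshold.

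Cyp11a1 makes pregnenolone from cholesterol, the entry step of steroid synthesis. It had 5.40, 5.55 and 5.32 among KO controls and 6.10, 5.96, 5.86 and 6.05 in KO lesions, without overlap, and its difference was 0.57 (SE 0.12, adjusted p = 0.0021) in KO and 0.15 (adjusted p = 0.40) in WT mice. A further row of this gene, dimmer on average, was left out of the fit. With the mean of its rows instead, the KO difference was 0.37 (limma adjusted p = 0.0033). Cyp26b1, which breaks down retinoic acid, had 5.61, 5.54 and 5.53 among KO controls and 6.16, 5.85, 5.90 and 5.84 across KO lesions. Its difference was 0.38 (SE 0.08, adjusted p = 0.0037) in KO and 0.06 (adjusted p = 0.63) in WT mice. The same centring gave an adjusted p of 0.061 in KO mice.

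**Figure D4:**
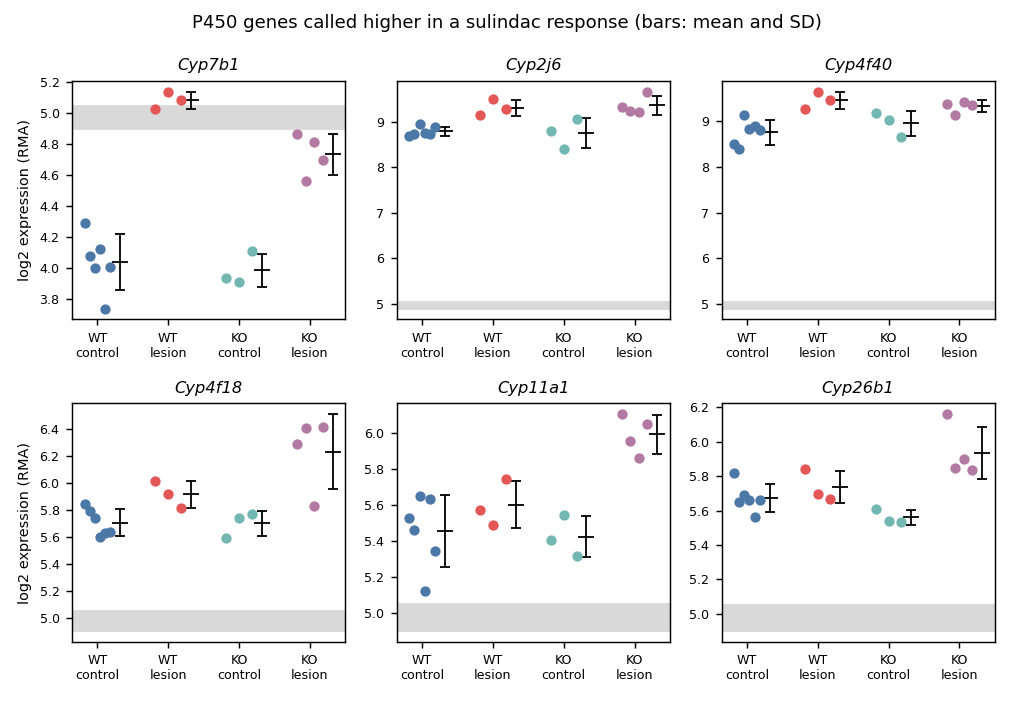
Log2 expression on each array (points) by group for the 6 P450 genes called higher in a response, with group mean and SD at the right of each group and a grey band for the range of array medians; each panel has its own scale. Cyp7b1 lesions lie above all controls, which lie below the band, and KO lesion 3 of Cyp4f18 lies near the controls.

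Markers of several cell types moved with these genes. Of 7 neutrophil markers all were higher in both responses, and the mean per array rose from 4.60 to 4.94 among WT controls to 7.33 to 8.10 in WT lesions, and from 4.60 to 4.85 among KO controls to 8.47 to 10.1 in KO lesions. All 7 macrophage markers were higher in WT and 6 in KO lesions, and 6 of 7 fibroblast markers were higher in each. Of 12 colonocyte markers 7 were lower and 1 higher in WT lesions and 4 were lower and 2 higher in KO lesions. Their mean per array fell from 11.4 to 11.6 among WT controls to 10.4 to 11.0 in WT lesions, and was 10.3 to 11.3 in KO lesions. Of 7 goblet cell markers 4 were lower in WT and 6 in KO lesions, and none was higher. Of 9 general epithelial markers 1 was lower in each response and 4 were higher in KO lesions, and their mean per array was 10.96 to 11.16 among WT controls, 11.09 to 11.22 in WT lesions, 10.97 to 11.11 among KO controls and 11.14 to 11.41 in KO lesions, without overlap in KO mice. In mucosa made of many cell types, fewer cells of a type and less RNA per cell cannot be told apart. The part of these shifts in the P450 values was not tested.

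**Figure D5:**
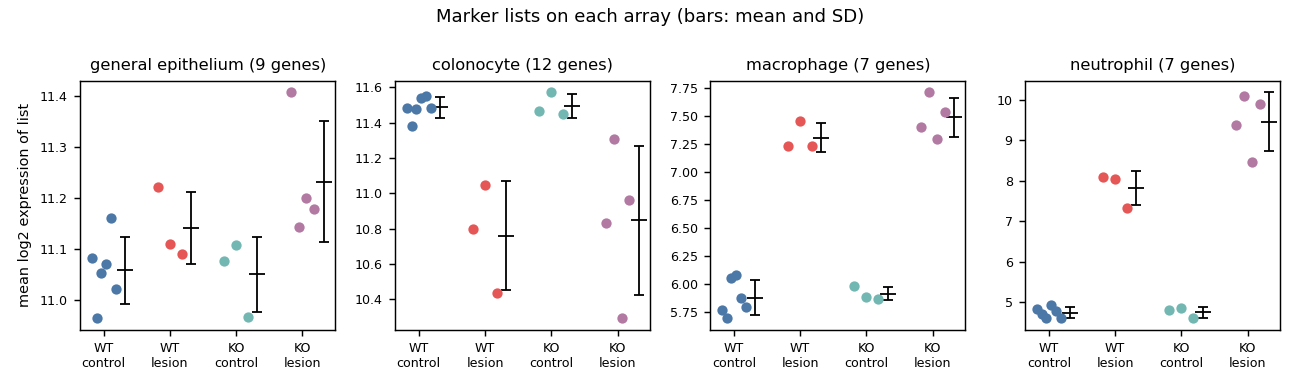
Mean log2 expression of 4 marker lists on each array (points) by group, with group mean and SD at the right of each group; each panel has its own scale. Colonocyte means are lower in every lesion than in every control, general epithelial means are higher in every KO lesion than in every KO control and overlap in WT mice, and macrophage and neutrophil means are higher in every lesion than in every control.

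No member passed between genotypes. On the control diet 0 of 97 passed with limma, and 0.0% of all genes were called. An unadjusted p under 0.05 was found for 641 of all 30705 genes and 2 of the members. Cyp2f2 had the lowest p, with KO minus WT at 0.42 (95% interval 0.06 to 0.77, adjusted p = 1.0), before Cyp2c37 at -0.18 and Cyp4f39 at -0.11. Between lesions 0 members passed, while 0.306% of all genes were called. There 4127 of all 30705 genes and 10 of the 97 members had an unadjusted p under 0.05. Cyp20a1 had a difference, KO minus WT, of -0.51 (95% interval -0.81 to -0.20, adjusted p = 0.15), Cyp39a1 had -0.61 (adjusted p = 0.17) and Cyp11a1 had 0.39 (adjusted p = 0.18).

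The interaction, KO response minus WT response, called 0 members and 0.00326% of all genes. At an unadjusted p under 0.05 it had 3422 of all 30705 genes and 9 of the 97 members. The lowest p values were those of Cyp20a1 at -0.67 (95% interval -1.08 to -0.25, adjusted p = 0.40), Cyp2c54 at 0.28 and Cyp26b1 at 0.31. Cyp20a1, a P450 of unknown substrate, had 7.78, 7.84 and 7.93 in WT lesions and 7.25, 7.18, 7.80 and 7.13 in KO lesions. KO lesion 3 lay among the WT lesions and the other KO lesions below them. Its KO response of -0.43 (adjusted p = 0.046) was called with all arrays and had an adjusted p of 0.14 in a fit of the KO arrays alone. The call was lost when any KO array but lesion 3 was left out (adjusted p = 0.052 to 0.19). Without that array Cyp20a1 (-0.66, adjusted p = 0.0034) and Cyp39a1 (-0.81, adjusted p = 0.0027) were called lower and Cyp4f18 (0.45, adjusted p = 0.0078) higher in KO than in WT lesions, and the interaction was called for Cyp20a1 (-0.82) and Cyp39a1 (-0.74). The share of all genes called without that array is not given, so these calls stand without a background. Of the 7 neutrophil markers 3 were called higher in KO than in WT lesions with all arrays (median log2 difference 1.68), and their mean was lowest among KO lesions on KO lesion 3, at 8.47. Their part in the Cyp4f18 value was not tested. Intervals of the interaction were wide for the most changed genes, from -1.48 to 1.44 for Cyp2c68 and from -0.19 to 2.01 for Cyp2c55.

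Genes that serve or regulate P450s were described from lists. Of 6 measured electron donors and membrane partners, Pgrmc1, a heme-binding partner of P450s, was lower in both responses (log2 differences of -0.73 in WT and -0.67 in KO mice), and Fdx1, which supplies mitochondrial P450s, fell by 0.45 in KO mice (adjusted p = 0.017). Of 7 genes of heme synthesis 3 fell in both responses, namely Urod, Uros and Fech, which inserts the iron. Fech had log2 differences of -0.36 in WT and -0.85 in KO mice. Alad rose by 0.69 in WT mice, and Alas1, the rate-setting step, rose by 0.60 in KO mice. Of 4 epoxide hydrolases 3 fell in both, and Ephx2, which turns epoxy fatty acids into diols, had -0.92 in WT (adjusted p = 7.5e-04) and -0.85 in KO mice (adjusted p = 0.0017). Ephx1 had -0.51 and -0.58, Ephx4 had -0.80 and -0.98, and Ephx3 rose by 0.28 in KO mice from a level near background.

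Of 11 nuclear receptors that act on P450 genes, 4 were lower in WT and 5 in KO lesions, and none was higher. Ppara, the fatty acid receptor, had log2 differences of -1.02 in WT and -0.76 in KO mice. Vdr, the vitamin D receptor, had -0.77 and -1.14, Nr5a2 had -1.06 and -2.15, and Nr1h3, the oxysterol receptor LXR alpha, had -0.27 and -0.24, all called. Hnf4g fell by 1.75 in KO mice (adjusted p = 7.7e-04) and had -0.58 in WT mice (adjusted p = 0.21). Hnf4a had -0.11 (adjusted p = 0.53) and -0.22 (adjusted p = 0.19), which missed the threshold.

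Of 5 genes of the aryl hydrocarbon receptor axis, Tiparp alone passed, higher by 0.61 in WT and 1.32 in KO mice on the log2 scale. Of 11 genes of retinoic acid handling, Aldh1a3, which makes retinoic acid, rose by 1.39 and 2.81 and Rdh10, which makes retinal, rose by 0.60 and 1.03. Aldh1a1, another retinal-oxidising enzyme, was lower (log2 -2.37 and -2.32), as was Dhrs3, which turns retinal back into retinol (log2 -0.98 and -1.05). Rara rose by 0.38 in KO mice alone. Of 3 P450s named otherwise, Tbxas1, thromboxane synthase, rose by 0.33 and 0.56, while Cyp51 and Ptgis passed in neither response.

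The counts of falls depended on the arrays used. Without WT lesion 3 there were 21 members lower in WT mice, and among arrays of the lower number series 19. With the number series as a covariate, 7 members were lower in KO mice, namely Cyp2c40, Cyp2c67, Cyp2c68, Cyp2c69, Cyp2d40, Cyp2r1 and Cyp39a1, and Cyp7b1 alone was higher. Shares over all genes are not given for these fits.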

How the data were processed

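Total RNA of colon mucosa was hybridised to Affymetrix arrays, 16 in all. The deposited values are log2 expression that the authors made with RMA in Affymetrix Power Tools 1.16.1, per the submitters' processing notes. RMA subtracts background, equalises the distributions of the arrays and summarises probes, so differences near background are compressed. The genome build of the rows is not given in the sources used here.

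Of 72688 rows, 31261 had 1 gene symbol in the probe table. Symbols were updated through RefSeq (GRCm38.p6), 1 of them a member's, and the row of highest mean per gene gave 30705 genes. Another 7 rows joined a P450 to a further symbol and were left out. Members and lists were chosen with earlier results of these data known.

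limma 3.58.1 in R 4.3.3 was run on the 4 group means over all arrays, two-sided, with adjusted p by Benjamini-Hochberg over all genes. The 5 comparisons were lesions against controls within WT and within KO mice, KO against WT among controls and among lesions, and the interaction. The fit was tested on simulated data. The genes given array by array passed with a log2 difference of at least 1, up to 15 per response, the others that passed, pseudogene names aside, are given by differences, and up to 3 of lowest p are named in each genotype comparison and 5 in each list. Genes called higher, Cyp20a1, Cyp3a44 and uncalled genes of known roles were added after their values were seen.

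No label says which arrays are separate animals, so p-values measure the spread between samples, which may be technical. Within groups arrays correlated at 0.980 to 0.991, and at most 0.0289% of rows were identical in any pair. No array was therefore a copy of another, but this cannot tell technical replicates from separate animals. The number of arrays limits the precision. Same-numbered WT and KO lesions deviated together (r of 0.465, 0.296 and 0.540), and a block of the replicate number changed no count there. For the WT response r was 0.348, 0.171 and 0.097. In both of these comparisons all 6 arrays checked correlated best with their own number. For the KO response and the control diet all r were negative. No label gives a pairing, so the numbers are a hint from the data, and the main fit uses no pairs.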

Additional observations from a re-analysis of the deposited data

Results flagged for a closer look

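Of 38 group tests of the genes given array by array, 3 found an array far from the rest of its group, where chance alone flags about 1 in 20. Only WT controls and KO lesions were tested. WT lesions and KO controls, with 3 arrays each, were too few for the test used. In KO lesions, Cyp2c68 was at 6.78 on replicate 2 against 4.28 on the next highest array, and Cyp2c67 was at 6.18 on the same array against 4.29. The 2 genes are close copies, so these flags are not independent. In WT controls, Cyp2r1 was at 4.94 on replicate 1 against 5.28 on the next lowest array.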

How the results depend on the processing

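Of 741 recomputed differences of the 19 genes given array by array, 669 kept their direction and their side of the threshold, 67 kept the direction and lost the call, 5 gained it (all Cyp2c66 in KO mice) and 0 reversed. With the replicate number as a block the WT response had 27 members lower and 4 higher, with a median of -0.1939, and the KO response 4 lower and 1 higher. All 6 arrays of the WT response and 0 of the 6 of the KO response correlated best with their own number, a hint from the data and not the design. The number series as a covariate gave 7 lower and 1 higher in the KO response with a median of -0.1242, and a WT median of -0.1939. Within the lower series the WT response had 19 lower and a median of -0.1939. At an adjusted p under 0.01 the KO response had 17 lower, and a fit of only the groups compared 15 lower and 3 higher. Centring on general epithelial markers gave 42 lower and 2 higher in KO mice, with medians of -0.2165 in KO and -0.231 in WT mice, and it moved the median of all genes by over 0.1 in KO mice, to -0.18. Centring on the array median gave a WT median of -0.1045. Without genes near background the medians were -0.4863 in WT and -0.4267 in KO mice, over 53 members. Array weights called 3 members between lesions, Cyp20a1, Cyp39a1 and Cyp7b1, all lower in KO lesions. Leaving out 1 array at a time gave 21 to 35 lower and 2 to 3 higher in WT mice (median -0.1773 to -0.136), 19 to 29 lower and 5 to 6 higher in KO mice (median -0.0812 to 0.0052), 0 to 3 calls between lesions, 0 to 2 in the interaction and 0 on the control diet. The extremes came without WT lesion 3 (21 lower), KO control 3 (19 lower) and KO lesion 3 (the genotype calls). The cause of these shifts was not tested, apart from fewer arrays in the fits that leave some out. No share over all genes is set beside the member counts of these settings.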

Other observations

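Rows that join a P450 to another symbol entered no comparison, and 1 of the 7 was bright. The row of Cyp2d11, which shares it with a microRNA gene, had log2 means of 8.06 among WT controls, 7.2 in WT lesions, 8.20 among KO controls and 7.42 in KO lesions. The row shared by Cyp4v3 and Klkb1 had 5.21, 5.39, 5.14 and 5.39 in the same order. The rows shared by Cyp2c29 and Cyp2c53-ps, by Cyp2a4 and Cyp2a5, by Cyp4a10 and Cyp4a31 and by Cyp3a41a and Cyp3a41b lay near background in all groups.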
